A study of Homo sapiens with 6 samples.

Results

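Molecular chaperones of the heat shock families were followed in Hs578T, a human cell line from a breast carcinoma, in a form in which HOXA5 can be switched on. Members were all probe sets of the array whose gene symbol in the platform's probe table names an HSP70 (HSPA), HSP110, HSP90A, small heat shock protein (HSPB), HSP60 or HSP10 (HSPD1, HSPE1), J-domain protein (DNAJA, DNAJB, DNAJC) or subunit of the CCT chaperonin (TCP1, CCT2 to CCT8), without the endoplasmic reticulum stress genes HSPA5, DNAJB9 and DNAJC3. The rule used no measured value, but was chosen with earlier results of these data known. It took 102 of the 22283 probe sets on the array and 61 of the 13119 gene symbols in the table. Of the 102, 91 carried 1 symbol and named 57 genes, and 11 carried several symbols. The set is not purely cytosolic, since it includes the mitochondrial HSPA9, HSPD1, HSPE1 and DNAJA3 and the endoplasmic reticulum proteins HSPA13, DNAJC1 and DNAJC10. CCT8L2, a gene related to CCT8, came in through its name.

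RNA was taken from cells before induction (0 h), and from cells 6 h and 9 h after induction of HOXA5, a homeobox transcription factor, in each of 2 experiments, so that each time has 2 arrays. The series was made to find HOXA5 targets, and all groups share the same inducible line, plated on 10 cm dishes 24 h ahead of induction. The inducing agent and whether the line is 1 clone are not given in the sources used here, and the level of HOXA5 was not analysed here. Uninduced cells at 6 h or 9 h were not analysed here, so HOXA5, the inducing agent and time in culture cannot be told apart. Per the labels each experiment is a separate RNA batch, but they conflict for the 6 h array of experiment 2. Its title names experiment 2 and its lot line experiment 1, and the title was followed. The p-values measure the spread between these 6 arrays, whose number limits the precision of every value.

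Values are intensities quantile normalised over the 6 arrays, so each is relative to the whole array. The median deposited intensity ranged from 18.7 to 95.8 over the arrays, and without scaling the median gene of the array had a log2 change against 0 h of -1.38 at 6 h and -0.58 at 9 h. The ratio of 3' to 5' signal, a sign of RNA quality, ranged from 0.863 to 1.31 for GAPDH and from 0.918 to 1.82 for ACTB, and was highest for both in the 9 h array of experiment 1. Its part in the results below was not tested. Markers of a mesenchymal basal breast line, such as VIM and SPARC, summed to between 17658 and 18932 intensity units (10 genes). Not all of these were bright. TWIST1 read between 12.35 and 59.7 units, and COL1A1 between 90.9 and 193 units, near the luminal marker GATA3 (114 to 193). Luminal epithelial markers summed to between 233 and 354 (6 of 8 listed genes tested), leukocyte markers to between 68.7 and 162 (4 of 7), endothelial markers to between 41.2 and 59.8 (2 of 4), and erythroid and hepatic markers to between 91.1 and 216 (4 of 6).

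HSP70 proteins bind and release exposed hydrophobic stretches of unfolded clients in an ATP-driven cycle. J-domain proteins deliver clients and stimulate the ATPase, HSP110 proteins exchange the nucleotide, and HSP90 takes over clients such as kinases and steroid receptors. Small heat shock proteins hold unfolded proteins without ATP, and the CCT (TRiC) ring folds actin and tubulin in the cytosol. In stressed cells the factor HSF1 binds heat shock elements, inverted repeats of the letters GAA, and switches on part of these genes, while others such as HSPA8 are made constantly.

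The promoters of 5 members described below are shown because they carry the letters that HSF1 recognises. None of the 5 genes passed in the tests given below. The sequences are from RefSeq (GRCh38.p14), are the 250 bases before a transcription start, run 5' to 3' along the gene, and have in capitals each stretch of 2 adjoining inverted units (GAANNTTC or TTCNNGAA), which overlap where 3 units adjoin. HSP90AB1, HSP90AA1 and DNAJB1 have several starts in the table, and the start whose window holds the letters is shown.
HSPA1A (chr6:31815293-31815542, plus strand): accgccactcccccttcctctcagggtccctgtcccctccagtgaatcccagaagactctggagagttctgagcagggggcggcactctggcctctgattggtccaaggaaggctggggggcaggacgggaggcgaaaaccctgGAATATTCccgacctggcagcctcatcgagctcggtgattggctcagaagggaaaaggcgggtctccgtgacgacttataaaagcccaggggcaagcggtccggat
DNAJB1 (chr19:14518398-14518647, minus strand): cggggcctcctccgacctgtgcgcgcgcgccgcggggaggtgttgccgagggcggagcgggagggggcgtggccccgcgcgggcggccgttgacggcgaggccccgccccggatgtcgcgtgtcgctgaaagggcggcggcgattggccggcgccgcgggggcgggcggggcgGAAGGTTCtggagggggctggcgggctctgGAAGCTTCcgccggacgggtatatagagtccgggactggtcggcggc
HSPB1 (chr7:76302423-76302672, plus strand): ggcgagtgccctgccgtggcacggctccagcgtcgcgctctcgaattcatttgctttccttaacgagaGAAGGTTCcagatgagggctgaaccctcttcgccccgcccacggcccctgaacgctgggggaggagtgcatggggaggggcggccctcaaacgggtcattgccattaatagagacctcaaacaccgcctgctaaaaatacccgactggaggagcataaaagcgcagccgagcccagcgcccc
HSP90AB1 (chr6:44247693-44247942, plus strand): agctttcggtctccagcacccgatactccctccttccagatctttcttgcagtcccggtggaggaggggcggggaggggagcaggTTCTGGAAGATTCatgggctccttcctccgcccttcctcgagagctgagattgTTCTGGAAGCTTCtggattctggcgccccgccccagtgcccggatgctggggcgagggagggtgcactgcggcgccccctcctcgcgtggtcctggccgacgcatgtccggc
HSP90AA1 (chr14:102087045-102087294, minus strand): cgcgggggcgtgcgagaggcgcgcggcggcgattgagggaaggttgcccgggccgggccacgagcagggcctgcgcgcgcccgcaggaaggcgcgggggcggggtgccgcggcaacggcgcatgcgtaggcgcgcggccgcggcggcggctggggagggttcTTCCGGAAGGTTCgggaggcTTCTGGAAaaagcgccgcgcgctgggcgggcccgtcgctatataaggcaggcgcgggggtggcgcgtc
In HSPA1A the match begins 106 bases before the start, in HSPB1 182 bases before it, and in DNAJB1 77 and 47 bases before it (a further match lies just past the printed end). HSP90AB1 holds 3 adjoining units at 165 and again at 112 bases before the start, and HSP90AA1 at 88.

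Windows of 300 bases, 250 before to 50 after a start, were at hand for 55 of the 61 member genes, counting those read only jointly. The letters GAANNTTC or TTCNNGAA, each its own complement on the other strand, occurred in at least 1 window of 25 of these 55 genes (45.5%), against 16.2% of the 27305 genes in the table. Stretches of 3 adjoining units (GAANNTTCNNGAA or its complement TTCNNGAANNTTC), which also contain the shorter match, occurred in 7 (12.7%), against 0.608% of all genes. These 7 were HSP90AA1, HSP90AB1, HSPA6, HSPA8, HSPD1, DNAJA1 and DNAJB6. A match is a run of letters and not a shown binding site.

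Measurable signal was present for nearly all members. A probe set was tested when at least 2 of the 6 arrays lay above a floor of 12.7 intensity units, the 25th percentile of all values, to which lower values were raised. This kept 98 of the 102 probe sets and 55 of the 57 genes read by their own probe sets. HSPB2, a muscle small heat shock protein, and DNAJC28 were not tested, nor was the dimmer probe set of HSPA12A and of DNAJB5. A gene is represented below by its brightest probe set.

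Over the 55 genes together, the middle of the chaperone set lay close to that of the array at both times. The median log2 change was -0.04 at 6 h against 0 h (0.06 in experiment 1 and -0.11 in experiment 2), beside 0.01 for all 10444 tested genes. At 9 h it was -0.01 (0.02 and -0.03), beside -0.02. In limma, adjusted over all 18360 tested probe sets by Benjamini-Hochberg at a threshold of 0.05, 0 of the 55 passed at 6 h, beside 0.0% of all genes, and 0 at 9 h, again beside 0.0%. At an unadjusted p under 0.05 there were 0 and 4 members (CCT3, DNAJB14, DNAJC2 and HSPB1), beside 4.22% and 7.91% of all genes. In the fit that pairs the arrays by experiment, 0 passed at 6 h (0.0% of all genes) and 1 at 9 h (1.82% of members, beside 0.45% of all genes), with 2 and 10 at an unadjusted p under 0.05, beside 9.74% and 15.1% of all genes. Groups of arrays that did not overlap were common. At 6 h, 4 members lay wholly above 0 h and 10 wholly below, beside 1759 and 1599 of all 10444 genes. At 9 h these were 9 and 10 members, beside 2001 and 2021 of all genes. A change of at least 1.5-fold in the same direction in both experiments was seen for 1 member at 6 h (1.82%, beside 8.58% of all genes) and 5 members at 9 h (9.09%, beside 12.4%). The member at 6 h was DNAJC12, lower; at 9 h DNAJC2, DNAJB14 and DNAJB2 were higher and HSPB1 and DNAJA4 lower.

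**Figure D1:**
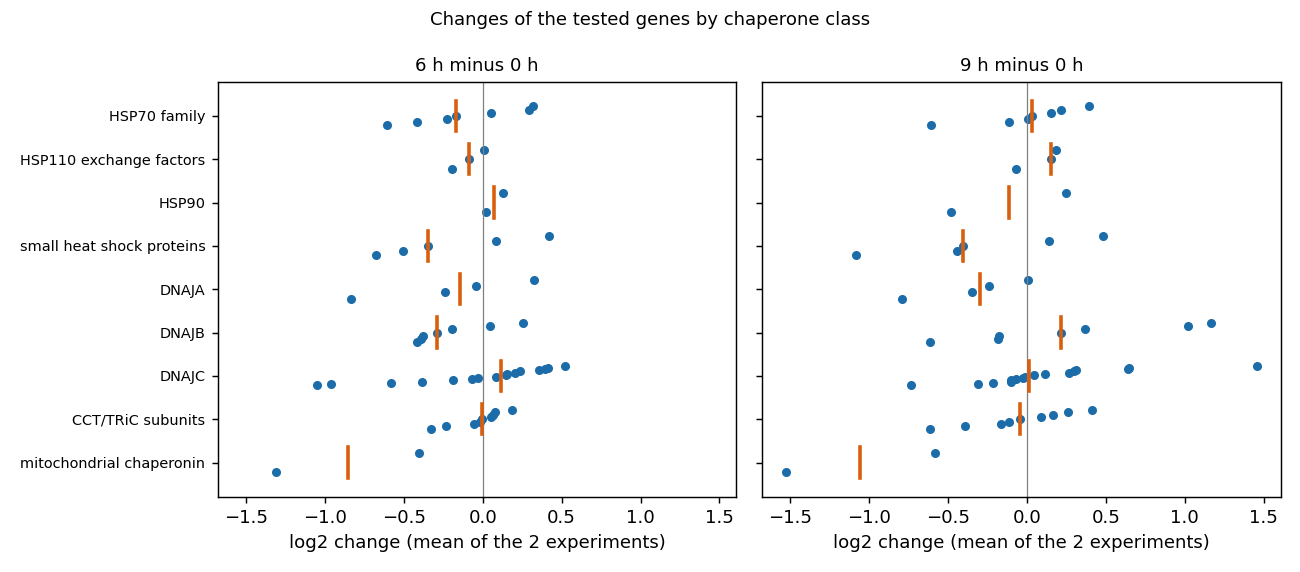
Log2 changes (x axis, mean of both experiments, at 6 h left and 9 h right, against 0 h) of the 55 tested genes by chaperone class (rows). Each dot is a gene and the vertical bar is the class median; the HSP10 gene HSPE1 lies lowest in both panels and DNAJC2 highest at 9 h.

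The member that passed was DNAJC2, the J-domain protein of the ribosome-associated complex that works with HSPA14 on nascent chains. It read 227 and 260 units at 0 h in experiments 1 and 2, 370 and 285 units at 6 h, and 690 and 648 units at 9 h. Both 9 h arrays lay above all 4 others, and the 6 h arrays lay above those at 0 h. At 9 h it was 2.75-fold higher than at 0 h, or 1.46 ± 0.27 in log2 units (here and below, ± is the standard error from limma, with n = 2 arrays in each group). The change was 1.60 in experiment 1 and 1.31 in experiment 2. The limma adjusted p was 0.543 without the experiment and 0.0419 with it. With the lot line as the block, in which both 6 h arrays share a lot line, it did not pass. Unscaled, the log2 change was 0.86. Leaving out any 1 array left it between 1.36 and 1.56. Its partner HSPA14 read 125 and 93.4 units at 0 h, 234 and 77.4 units at 6 h, and 263 and 54.6 units at 9 h. For HSPA14 the experiments thus went opposite ways, by 1.08 and -0.77 on the log2 scale at 9 h.

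The stress-inducible HSP70 genes HSPA1A and HSPA1B are nearly identical, and 3 probe sets read them jointly, 1 of these together with their relative HSPA1L. The brightest read 1425 and 1117 units at 0 h in experiments 1 and 2, 1708 and 649 units at 6 h, and 1212 and 556 units at 9 h. The probe set that also reads HSPA1L read 550 and 359 units at 0 h, 542 and 179 units at 6 h, and 267 and 169 units at 9 h. On the third these were 320 and 69.8, 374 and 48.0, and 186 and 43.4 units. In both experiments every one of the 3 was lowest at 9 h, but only for the second did the 9 h and 0 h arrays not overlap. The log2 changes at 9 h were -0.62 ± 0.52, -1.06 ± 0.54 and -0.74 ± 1.16, and none passed (limma adjusted p = 0.850, 0.719 and 0.929 unpaired, 0.314, 0.161 and 0.389 in the fit that pairs the experiments). At 6 h they were close to the 0 h level in experiment 1 (0.26, -0.02 and 0.22) and lower in experiment 2 (-0.78, -1.01 and -0.54). HSPA1L by its own probe set was at the floor in all 6 h and 9 h arrays, and read 14.8 and 25.4 units at 0 h, so that it was at least 1.52-fold lower at both times.

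**Figure D2:**
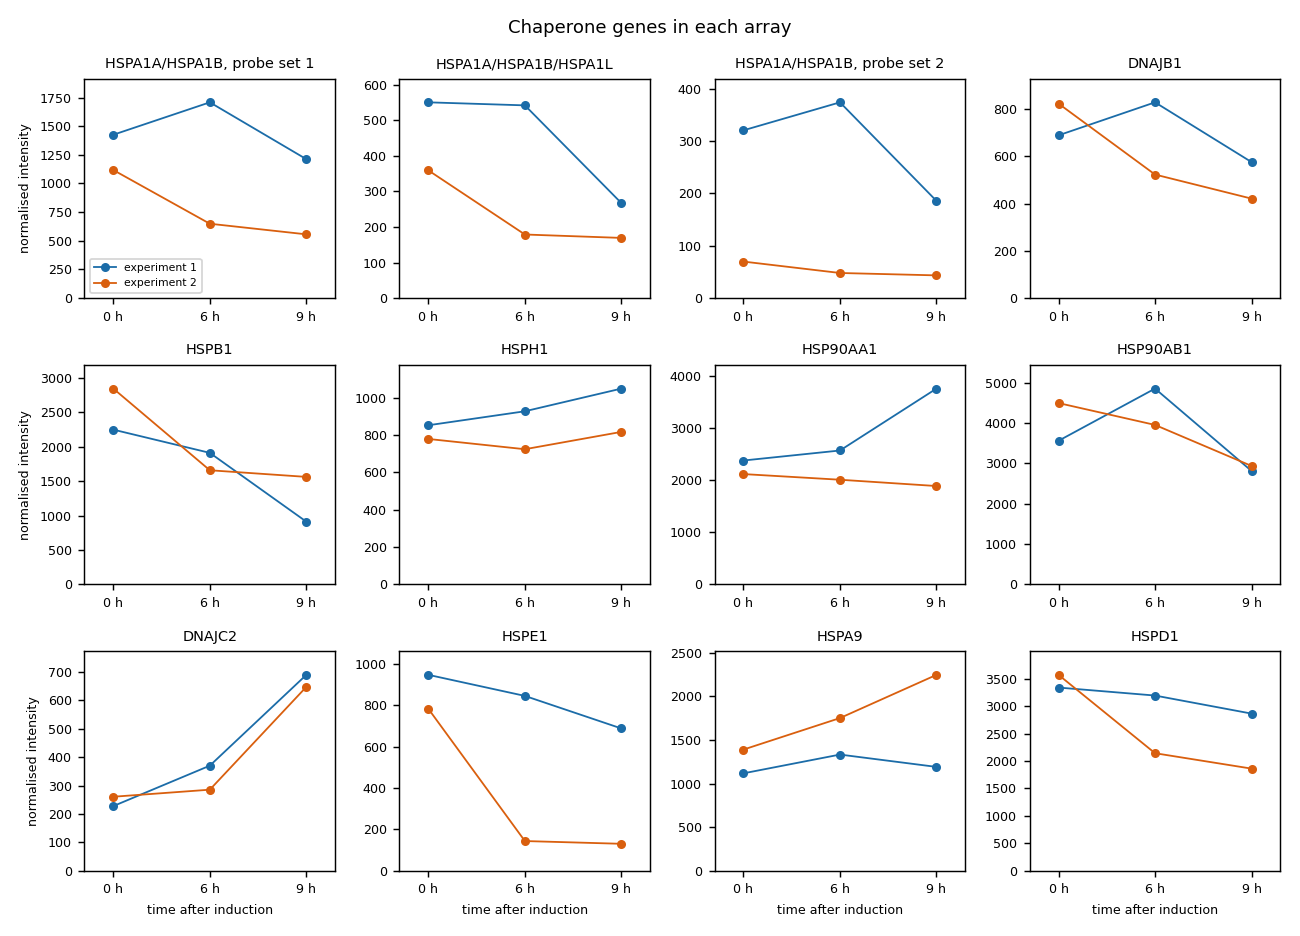
Normalised intensity (y axis, from 0) at 0, 6 and 9 h (x axis) in experiment 1 (blue) and experiment 2 (orange) for 12 chaperone probe sets, 1 point per array. The jointly read HSPA1A/HSPA1B, DNAJB1, HSPB1, HSP90AB1, HSPE1 and HSPD1 lie lowest at 9 h in both experiments. DNAJC2 and HSPH1 lie highest at 9 h in both, and HSPE1 separates the experiments at 6 h and 9 h.

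HSPA8, the constitutive cytosolic HSP70, is read by 3 probe sets that the table assigns to it together with the small nucleolar RNAs SNORD14C and SNORD14D, which lie in its introns. The brightest read 5390 and 6288 units at 0 h, 5910 and 5581 units at 6 h, and 5810 and 4710 units at 9 h. The groups overlapped, and the log2 changes of the 3 probe sets lay between -0.02 and 0.12 at 6 h and between -0.15 and 0.04 at 9 h. HSPA9, the HSP70 of the mitochondrial matrix, read 1117 and 1390 units at 0 h, 1332 and 1751 units at 6 h, and 1191 and 2247 units at 9 h. It was higher than at 0 h in both experiments, by 0.09 and 0.69 on the log2 scale at 9 h (0.39 ± 0.34, limma adjusted p = 0.851). A second HSPA9 probe set had 0.77 ± 0.33, with 0.73 and 0.81 in the experiments and no overlap of the 9 h and 0 h arrays (limma adjusted p = 0.672 unpaired, 0.119 paired by experiment). The third, dimmer one had 0.32 ± 0.47. The strictly stress-inducible HSPA6 was dim, at 24.1 and 35.9 units at 0 h, 20.3 and 24.0 units at 6 h, and 22.2 and 52.7 units at 9 h. Its 9 h and 0 h arrays overlapped. HSPA2, an HSP70 abundant in testis, HSPA12A and HSPA13 overlapped with 0 h at both times.

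HSPH1 (HSP110) and HSPA4 are nucleotide exchange factors of HSP70, and by its brightest probe set neither differed from 0 h beyond its spread. HSPH1 read 852 and 778 units at 0 h, 927 and 724 units at 6 h, and 1048 and 816 units at 9 h, with overlapping groups and a log2 change at 9 h of 0.18 ± 0.25. HSPA4 had 461 and 483 units at 0 h, 701 and 282 units at 6 h, and 686 and 401 units at 9 h (0.15 ± 0.46). Dimmer HSPA4 probe sets disagreed at 9 h. One was higher in both experiments with no overlap (0.36 ± 0.32), and another was lower in both with no overlap (-0.23 ± 0.27). At 6 h HSPH1, HSPA4 and HSPA4L were each above 0 h in experiment 1 and below it in experiment 2.

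The 2 cytosolic HSP90 genes differed in the sign of their mean change at 9 h, a difference between genes that was not tested. They went opposite ways only in experiment 1, and in experiment 2 both were lower at 9 h than at 0 h. The constitutive form HSP90AB1 read 3559 and 4494 units at 0 h, 4853 and 3952 units at 6 h, and 2811 and 2935 units at 9 h. Its 9 h arrays lay below all others. The log2 change was -0.48 ± 0.22 against 0 h and -0.61 ± 0.22 against 6 h (limma adjusted p = 0.699 and 0.932 unpaired, 0.323 and 0.473 paired by experiment). Its second probe set gave -0.17 against 0 h, with overlapping groups. The inducible form HSP90AA1 read 2379 and 2118 units at 0 h, 2571 and 2010 units at 6 h, and 3760 and 1889 units at 9 h. The arrays of 0 h and 9 h overlapped, the log2 change was 0.25 ± 0.34, and its 4 probe sets ranged from -0.07 to 0.25. Both promoters carry 3 adjoining heat shock units in the windows printed above.

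Among the small heat shock proteins, HSPB1 stood lowest against its 0 h level at 9 h. HSPB1 (HSP27), an ATP-independent holder of unfolded proteins that also acts on actin filaments, read 2251 and 2848 units at 0 h, 1913 and 1660 units at 6 h, and 912 and 1563 units at 9 h. Every 6 h and 9 h array lay below both 0 h arrays. At 9 h it was 2.12-fold lower than at 0 h, a log2 change of -1.08 ± 0.30 with -1.30 in experiment 1 and -0.87 in experiment 2, and did not pass (limma adjusted p = 0.577 unpaired, 0.0938 paired by experiment). Leaving out the 9 h array of experiment 1 gave -0.70, and leaving out that of experiment 2 gave -1.47. HSPB8, the partner of BAG3 in selective autophagy, had 444 and 379 units at 0 h, 468 and 642 units at 6 h, and 401 and 821 units at 9 h. It was higher than at 0 h in both experiments at 6 h, but at 9 h only in experiment 2. The muscle-enriched HSPB3, HSPB6 and HSPB7 were dim, at most 85.2 units on any array, and HSPB7 lay at the floor on each 6 h array, which makes it at least 1.60-fold lower there than at 0 h.

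J-domain proteins of the DNAJA and DNAJB groups, the general partners of cytosolic HSP70, held members above and below their 0 h level. DNAJB1 (HSP40), the inducible partner of HSP70, read 690 and 824 units at 0 h, 829 and 523 units at 6 h, and 576 and 421 units at 9 h. The 9 h arrays lay below both 0 h arrays, with a log2 change of -0.61 ± 0.31 and of -0.85 ± 0.33 on its second probe set (limma adjusted p = 0.716 and 0.653 unpaired, 0.312 and 0.239 paired by experiment). The 9 h changes of the 2 probe sets were -0.26 and -0.62 in experiment 1 and -0.97 and -1.08 in experiment 2. DNAJA4, whose promoter also holds the 2-unit letters, read 153 and 178 units at 0 h, 126 and 205 units at 6 h, and 88.1 and 103 units at 9 h. Its change at 9 h was alike in the experiments, -0.80 and -0.79. DNAJA1, the main constitutive DNAJA protein, read 940 and 978 units at 0 h, 1148 and 576 units at 6 h, and 1082 and 524 units at 9 h, above 0 h in experiment 1 and below it in experiment 2. DNAJA2 had a log2 change of -0.84 at 6 h, of -0.33 and -1.34 in the experiments.

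DNAJB14, an endoplasmic reticulum membrane J-domain protein, read 27.5 and 17.8 units at 0 h, 12.1 and 21.7 units at 6 h, and 57.5 and 42.7 units at 9 h, the highest time in both experiments (log2 change against 0 h 1.17 ± 0.47, limma adjusted p = 0.667). DNAJB2, which sorts clients to the proteasome and is best known in neurons, read 56.8 and 69.8 units at 0 h, 51.8 and 109 units at 6 h, and 91.7 and 178 units at 9 h. Its log2 change at 9 h was 1.02 ± 0.53 (0.69 and 1.35 in the experiments, limma adjusted p = 0.727). Of the 7 tested DNAJB genes 4 were higher and 2 lower at 9 h in both experiments, beside 28.0% and 29.5% of all genes. The class median was -0.29 at 6 h and 0.22 at 9 h. Among the 4, DNAJB4 and DNAJB6 had other probe sets without this rise. The second DNAJB4 probe set had 0.44 and -0.15 in the experiments, and those read jointly with TMEM135 and DNAJB6 had -1.17 and -0.45. DNAJB5, DNAJB6 and DNAJB12 had log2 changes at 9 h of -0.18, 0.22 and -0.18.

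The DNAJC group, 16 tested genes with specialised tasks, had class medians of 0.12 at 6 h and 0.01 at 9 h on the log2 scale. The clathrin-uncoating auxilin DNAJC6 read 102 and 75.4 units at 0 h, 106 and 125 units at 6 h, and 144 and 130 units at 9 h (log2 change 0.64 ± 0.36). DNAJC12, a partner of aromatic amino acid hydroxylases, read 113 and 63.8 units at 0 h, 52.9 and 31.7 units at 6 h, and 85.3 and 81.6 units at 9 h. It was the 1 member at least 1.5-fold lower at 6 h in both experiments (log2 change -1.05 ± 0.48, limma adjusted p = 0.969), and at 9 h it overlapped with 0 h. DNAJC17, a nuclear splicing-linked member, had a log2 change of -0.96 at 6 h and -0.73 at 9 h, with -0.35 and -1.57 in the experiments at 6 h and -1.46 and -0.00 at 9 h. The -1.57 and the -1.46 each rest on an array below the floor that was raised to it, beside 35.1 and 37.9 units at 0 h. DNAJC1, of the endoplasmic reticulum membrane, lay at 44.8 units in the 6 h array of experiment 2 and between 118 and 293 units elsewhere. DNAJC4 had the highest log2 change at 6 h among members above 0 h in both experiments (0.52 ± 0.41), while another of its probe sets had -0.56. DNAJC8, DNAJC9, DNAJC10, DNAJC11, DNAJC13, DNAJC15, DNAJC16, DNAJC22 and DNAJC24 lay between -0.31 and 0.30 at 9 h.

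By their brightest probe sets, most subunits of the CCT ring had log2 changes within 0.3 of 0 at 9 h. A ring holds 8 different subunits, and each is read here, TCP1 only together with the small nucleolar RNA SNORA29. CCT2 read 1376 and 1857 units at 0 h, 1548 and 1771 units at 6 h, and 1601 and 1814 units at 9 h. CCT4 read 2419 and 2444 units at 0 h, 2023 and 2722 units at 6 h, and 2216 and 2517 units at 9 h. For both, all times overlapped. CCT5 read 1817 and 2651 units at 0 h, 2251 and 2128 units at 6 h, and 2110 and 1954 units at 9 h. CCT6A read 780 and 1044 units at 0 h, 943 and 842 units at 6 h, and 1009 and 1020 units at 9 h. In both, experiment 1 was above and experiment 2 below its 0 h level at either time, while a dimmer CCT6A probe set was lower at 6 h in both experiments with no overlap (-0.67 ± 0.29). CCT8 read 1092 and 1301 units at 0 h, 1330 and 1193 units at 6 h, and 1548 and 1313 units at 9 h. The brightest TCP1 probe set read 1117 and 1362 units at 0 h, 1278 and 940 units at 6 h, and 1461 and 945 units at 9 h. CCT5, CCT6A and CCT8 had log2 changes at 9 h of -0.11, 0.17 and 0.26, and TCP1 -0.07, with standard errors between 0.22 and 0.30.

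Lower at 9 h in both experiments were CCT3 and CCT7. CCT3 read 1347 and 1962 units at 0 h, 1471 and 1298 units at 6 h, and 1117 and 1012 units at 9 h, so that its 9 h arrays lay below all others (log2 change against 0 h -0.61 ± 0.25, limma adjusted p = 0.669 unpaired, 0.259 paired by experiment). CCT7 read 932 and 1249 units at 0 h, 850 and 872 units at 6 h, and 733 and 919 units at 9 h (-0.39 ± 0.25). Whether CCT3 differed from the other subunits was not tested. CCT6B, a testis form of CCT6A, had 71.1 and 59.9 units at 0 h, 67.1 and 82.1 units at 6 h, and 82.8 and 91.5 units at 9 h. CCT8L2 was at or near the floor throughout.

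Mitochondrial HSP60 and HSP10 form the chaperonin of the matrix and are transcribed head to head from a shared promoter region. HSPE1 (HSP10) read 947 and 782 units at 0 h, 845 and 143 units at 6 h, and 687 and 130 units at 9 h. It was lower than at 0 h in both experiments, and the experiments differed widely in size, -0.46 and -2.59 on the log2 scale at 9 h (-1.53 ± 0.96, limma adjusted p = 0.781). Without the 9 h array of experiment 2 the value was -0.32, and without that of experiment 1 -2.73. HSPD1 (HSP60) read 3339 and 3570 units at 0 h, 3193 and 2141 units at 6 h, and 2864 and 1860 units at 9 h. Both of its probe sets were lower than at 0 h at 6 h and 9 h with no overlap, with log2 changes of -0.58 ± 0.29 and -0.37 ± 0.21 at 9 h (limma adjusted p = 0.713 and 0.752 unpaired, 0.269 and 0.423 paired by experiment). DNAJA3, the mitochondrial partner of HSPA9, had 0.33 ± 0.34 at 6 h and 0.01 ± 0.34 at 9 h.

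The 2 experiments often parted. At 6 h against 0 h, 20 of the 55 genes (36.4%) were higher in experiment 1 and lower in experiment 2, beside 20.1% of all genes, and 13 (23.6%) went the other way, beside 22.1%. At 9 h these were 16 (29.1%, beside 16.4%) and 11 (20.0%, beside 19.8%). Both experiments went the same way for 21 members at 6 h (38.2%, beside 51.9% of all genes), of which 8 were higher (2812 of all 10444 genes were) and 13 lower (2607 of all genes). At 9 h 13 members were higher in both (23.6%, beside 28.0%) and 13 lower in both (23.6%, beside 29.5%). At 6 h, 9 members were at least 2-fold lower in experiment 2 than in experiment 1 (16.4%, beside 9.55% of all genes) and 2 at least 2-fold higher, as were 1139 of all 10444 genes. These genes share 6 arrays, so the shares describe the arrays.

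**Figure D3:**
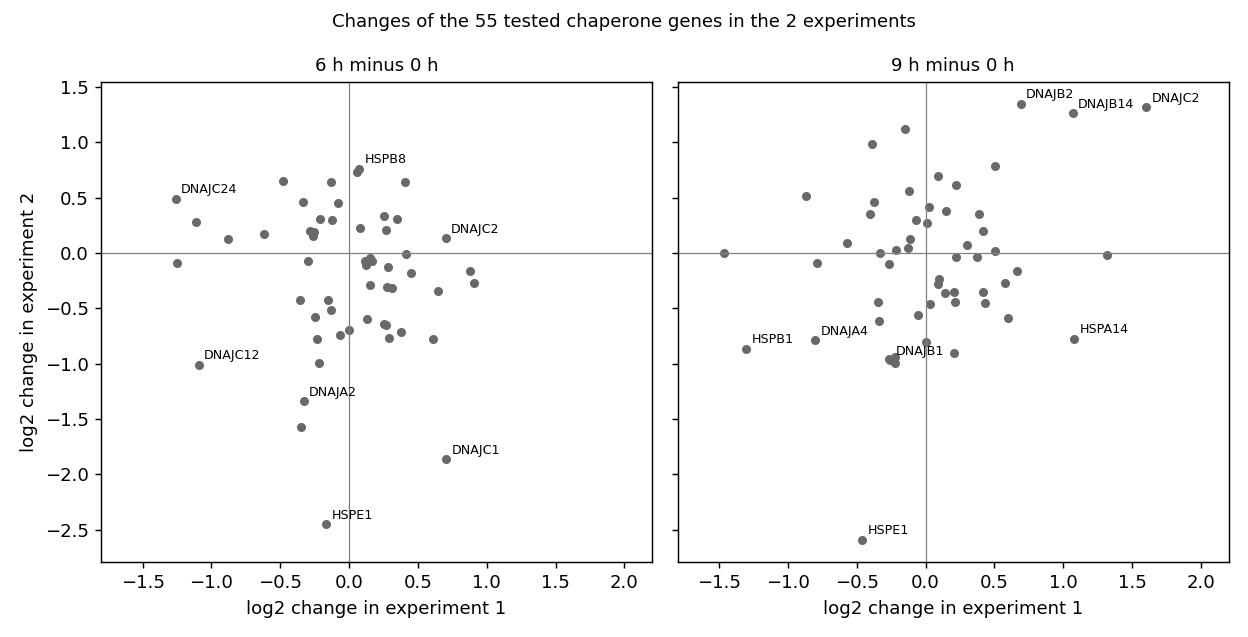
Log2 change in experiment 2 (y axis) against that in experiment 1 (x axis) for the 55 tested genes, 6 h against 0 h left and 9 h against 0 h right, 1 dot per gene. DNAJC2 lies at 1.60 and 1.31 at 9 h, HSPB1 at -1.30 and -0.87, and HSPE1 far below 0 in experiment 2 at both times.

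Between the induced times, 9 h against 6 h, the median log2 change was 0.07, beside -0.01 for all genes, and 0 members passed in limma without or with the experiment (0.0% of all genes in each, with 3 and 8 members at an unadjusted p under 0.05, beside 5.04% and 9.38% of all genes). At least 1.5-fold higher in both experiments were 6 members (10.9%, beside 4.11%), namely DNAJB2, DNAJB4, DNAJB14, DNAJC1, DNAJC2 and DNAJC12, and lower 0 (beside 3.49%). Of the members above their 6 h level in both experiments, DNAJB14 (1.58 ± 0.47), DNAJC1 (1.23 ± 0.68) and DNAJC2 (1.04 ± 0.27) had the highest log2 changes. The 6 h array of experiment 1 lay below the floor for DNAJB14 and was raised to it. The second DNAJB4 probe set, with 0.12 and 0.53 in the experiments, did not reach 1.5-fold. On the lower side were DNAJA4 (-0.75 ± 0.37), HSP90AB1 and HSPB1 (-0.58 ± 0.30). Comparisons of 6 h and of 9 h with 0 h share the 0 h arrays. Those of 6 h with 0 h and of 9 h with 6 h share the 6 h arrays, so low 6 h arrays enter both, as for DNAJC12.

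The heat shock factors and helpers of these chaperones gave 0 genes past the threshold in either fit at 6 h or 9 h. HSF1, the main heat shock factor, read 142 and 227 units at 0 h, 177 and 158 units at 6 h, and 81.4 and 161 units at 9 h (log2 change at 9 h -0.65 ± 0.44). IER5, an activator of HSF1, was higher in both experiments at both times, by 0.73 ± 0.31 at 9 h. HSBP1, which binds HSF1, had -0.35 at 9 h with no overlap. HSF4 was listed near the floor, and HSF2BP had -0.16 at 6 h. The 7 tested genes of that list of 10 had a median of 0.11 at 9 h. Co-chaperones (20 tested of 24) had a median of -0.08. Among them the HSP90 immunophilin FKBP4 was at -0.97 ± 0.34 at 9 h, with 374 and 257 units at 0 h, 168 and 228 units at 6 h, and 141 and 179 units at 9 h. CDC37L1 and HSPBAP1 were at 0.94 and 0.78. PPP5C, an HSP90-bound phosphatase, and ST13 (HIP) had 0.56 and -0.48 at 6 h.

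Other heat-inducible genes (8 tested of 9) had a median of -0.38 at 6 h and -0.53 at 9 h. At 9 h 5 were lower and 2 higher in both experiments, beside 29.5% and 28.0% of all genes. FKBP4, also on the co-chaperone list, and TRAP1, also on the mitochondrial list, are counted among them. The collagen chaperone SERPINH1 (HSP47) read 495 and 402 units at 0 h, 396 and 92.5 units at 6 h, and 216 and 63.6 units at 9 h, a log2 change at 9 h of -1.93 ± 0.77 (limma adjusted p = 0.667). The small heat shock protein CRYAB had -1.03 at 9 h, with the 9 h array of experiment 2 at the floor. Prefoldin, which hands clients to CCT, was listed with the tubulin cofactors, which act on tubulin after CCT, phosducin-like proteins and chaperonin-like proteins. These genes (14 tested of 16) had a median of 0.17 at 9 h. Tubulin cofactor TBCE and the chaperonin-like MKKS were higher in both experiments at 9 h, by 0.83 and 0.82, the prefoldin subunit PFDN1 was at -0.73, and the chaperonin-like BBS10 was at -0.90 at 6 h. Mitochondrial quality control genes (8 tested of 10) had a median of -0.23, with the protease subunit CLPP at -0.79 and the HSPA9 exchange factor GRPEL1 at -0.50, against CLPX at 0.51. At 6 h AFG3L2 and TRAP1 had -0.22 and -0.17. Of the genes left out as endoplasmic reticulum stress genes, HSPA5 was at -0.80 at both times, DNAJB9 at -0.01 and DNAJC3 at -0.26 at 9 h.

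The changes of genes with and without the heat shock letters in their promoter windows were set side by side, and their difference was not tested. At 9 h against 0 h, 29.5% of all genes were lower and 28.0% higher in both experiments. The 21 tested genes with at least 2 units had a median log2 change of -0.04, with 7 lower and 6 higher in both experiments. The 29 without had -0.02, with 6 and 7. The 6 with 3 units had -0.07, with HSP90AB1 and HSPD1 lower and DNAJB6 higher in both experiments. For 9 h against 6 h the medians were 0.04 with at least 2 units, 0.03 with 3 units and 0.17 with no match.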

How the data were processed

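The submitters deposited 1 linear intensity per Affymetrix probe set and array, in unscaled form as the values show (which software the authors used is not given in the sources used). Trimmed means (2% off each end) differed 5.49-fold between arrays, so the deposited intensity values were brought to the same distribution by quantile normalisation, raised to at least the 25th percentile (12.7), and log2 transformed. After 68 Affymetrix controls were left out, 18360 probe sets with at least 2 arrays above the floor were fitted with limma 3.58.1 in R 4.3.3 (group means over all 6 arrays, eBayes with an intensity trend, two-sided p-values, Benjamini-Hochberg over all probe sets, 3 residual degrees of freedom). The fit was also run on simulated data with large planted changes, small independent noise and no experiment effect. That run cannot show how well the fit finds changes of the size seen here. Gene names came from the probe table of the platform, with symbols updated through Entrez numbers for 19059 of 19071. The brightest probe set with 1 symbol stood for a gene.

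The members and the gene lists were chosen with earlier results of these data known. Genes named are fixed core chaperones, the 6 largest rises and falls shared by both experiments at 6 h and at 9 h (3 each for 9 h against 6 h), members past the threshold, and up to 3 per other list. HSPA14, HSPA2, HSPA6, HSPA12A, HSPA13, HSPA4L, HSPB3, HSPB6, CCT8L2, the DNAJB and DNAJC genes given only at 9 h, and the probe sets that disagree with their gene's brightest one were named after their values were seen.

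Experiment numbers mark shared batches of RNA per the labels, and deviations from the group means correlated within experiments at 0.247, 0.336 and 0.391 for the 3 pairs of times. The fit with the experiment (replicate block) is the paired alternative, with 2 residual degrees of freedom. The 6 h array of experiment 2 carries the lot line of experiment 1, and its title was followed. Other alternatives were the lot line as block, no scaling, trimmed-mean scaling, a lower floor, no filter, probe sets averaged, no trend, and each array left out.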

Additional observations from a re-analysis of the deposited data

Results flagged for a closer look

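Against the 0 h level, 2 members were lower at 6 h and higher at 9 h in both experiments, which 5.60% of all tested genes also were in one order or the other. DNAJB4, a cytosolic HSP70 partner, had log2 changes of -0.39 at 6 h and 0.37 at 9 h, reading 171 and 136 units at 0 h, 134 and 101 units at 6 h, and 224 and 173 units at 9 h. A second DNAJB4 probe set, nearly as bright, did not share this pattern. Its changes in experiments 1 and 2 were 0.32 and -0.68 at 6 h, and 0.44 and -0.15 at 9 h. DNAJC7, which links HSP70 and HSP90, had -0.19 and 0.31. The difference itself, 9 h against 6 h, was 0.76 for DNAJB4 and 0.50 for DNAJC7 and did not pass (limma adjusted p = 0.932 for each).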

How the results depend on the processing

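No alternative gave a member past the threshold at 6 h against 0 h or at 9 h against 6 h. With the experiment as a replicate block 1 member, DNAJC2, passed at 9 h against 0 h; with the lot line as the block, and when any 1 array was left out of the unpaired fit, 0 did. The block changed no other call. In unscaled intensities the median log2 change of the members was -1.51 at 6 h, -0.58 at 9 h and 0.90 for 9 h against 6 h, where all genes shifted alike (-1.38, -0.58 and 0.79), and 31 and 13 members moved 1.5-fold the same way in both experiments at 6 h and 9 h. At 6 h that count was 3 with the floor at the 10th percentile and 2 with a gene's probe sets averaged. The median for 9 h against 6 h was 0.00449 with trimmed-mean scaling, 0.0988 with the lower floor and 0.00928 with averaged probe sets. With 1 array left out, the medians ranged from -0.119 to 0.0108 at 6 h, from -0.0549 to 0.0168 at 9 h, and from 0 to 0.0737 for 9 h against 6 h. The 1.5-fold counts need both experiments and were not run with an array left out. For 9 h against 6 h they were run only in the main setting. Of 32 named members at 9 h, the sign of the change turned for 11 in unscaled values, for 2 with trimmed-mean scaling, for 2 with averaged probe sets, and for between 0 and 6 with 1 array left out.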

Other observations

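The genes whose profile over the 6 arrays was most like that of DNAJB1 were FBL, the nucleolar methyltransferase fibrillarin (Pearson r = 0.993), FOXF2 (0.990), PWWP3A (0.990), SIGIRR (0.988) and ICAM3 (0.984). Among the members the nearest were the mitochondrial DNAJC15 (0.976) and HSPD1 (0.933). These are descriptions over 6 arrays that share their normalisation, picked from 10444 genes. FBL read 973 and 1145 units at 0 h, 1081 and 658 units at 6 h, and 760 and 501 units at 9 h.

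Probe sets of a gene did not always give the same picture. The brighter probe set of DNAJC7 had a log2 change of -0.19 at 6 h, and its dimmer one lay at the floor on each 6 h array, which makes it at least 2.47-fold lower there than at 0 h and at least 3.47-fold higher at 9 h than at 6 h. One DNAJB12 probe set lay at the floor on each 9 h array, at least 2.54-fold lower there than at 0 h, beside changes of -0.18, -0.06 and 0.39 in the other 3. One DNAJC16 probe set had 1.33 at 6 h, against -0.03 and -0.25 in the others. The dimmer CCT6A probe set read 908 and 864 units at 0 h, 613 and 504 units at 6 h, and 1053 and 653 units at 9 h. It was lower at 6 h in both experiments with no overlap (log2 change -0.67 ± 0.29), beside -0.02 for the brighter one. A probe set read jointly with TMEM135 and DNAJB6 had -1.58 ± 0.60 at 6 h and -1.17 ± 0.60 at 9 h, while the probe set of DNAJB6 alone had 0.05 and 0.22.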
